A study of Sordaria macrospora with 8 samples.

Results

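Overlapping H3K56ac peaks of the wild type and of delta-asf1 with displaced borders were described in mycelium of the filamentous fungus Sordaria macrospora. Pairs were selected on the peak positions and widths in both lists: a pair was taken when 1 wild-type peak and 1 delta-asf1 peak overlapped each other by 1 bp or more, neither overlapped any other peak of the other strain, and the overlap covered less than 50% of at least one of both peaks. Of 7430 wild-type and 7117 delta-asf1 peaks, 4362 pairs overlapped one to one, and 1341 of these met the overlap rule (30.7% of the pairs, 18.0% of the wild-type and 18.8% of the delta-asf1 peaks). They are called displaced pairs here, and the other 3021 one-to-one pairs are given beside them. The rule used the peak positions of both lists, so widths, shifts and strengths within the pairs are a description without a test.

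Acetylation of lysine 56 of histone H3 lies in the core of the histone and is carried by newly made histones that are put into nucleosomes during replication, transcription and repair. In Saccharomyces cerevisiae the acetyltransferase RTT109 places this mark on histones that are bound by the chaperone ASF1, and the mark is known from promoters and other places with a high exchange of nucleosomes. ASF1 hands histones H3 and H4 on to other assembly factors.

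Chromatin was immunoprecipitated with an antibody against H3K56ac and sequenced, and each strain gave 2 immunoprecipitated samples and 2 inputs. Cultures stood at 27 °C in liquid complete medium under constant light, those of the wild type for 2 days and those of the asf1 deletion mutant (delta-asf1) for 3 days. Mycelium of both strains was fixed with 1% formaldehyde for 15 min, and chromatin was cut for 105 min with 230 U/ml of micrococcal nuclease. The mutant grows more slowly and was kept longer for that reason, so genotype and growth time cannot be told apart. The peaks were given as 1 pooled list per strain, whose peak names carry 1 library code, so it is uncertain whether a list stands for both replicates. No list held a value per replicate and the read depth is unknown, so no difference could be set against the spread between replicates. Intervals are 95% Wilson intervals and cover counting error alone, since pairs of peaks from the same libraries are not replicates.

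Both kinds of displaced pairs were common. In 595 pairs (44.4%, interval 41.7 to 47.0%) one peak lay wholly inside the other, and in 746 pairs (55.6%, 53.0 to 58.3%) the peaks overlapped in part. Nested pairs made up 51.1% of the pairs that were not displaced and 49.0% of all one-to-one pairs. The wild-type peak was the outer peak in 372 nested pairs and the delta-asf1 peak in 223, so that the wild type was outside in 62.5% (58.6 to 66.3%), beside 52.8% (50.3 to 55.3%) of the nested pairs that were not displaced. In the partly overlapping pairs the wild-type peak lay to the left in 363 and the delta-asf1 peak in 383, and the wild-type share of 48.7% (45.1 to 52.2%) included an even split, beside 52.2% in the pairs that were not displaced.

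The wild-type peak was the wider one in 796 displaced pairs, the delta-asf1 peak in 544, and 1 pair had equal widths. This share of 59.4% (56.7 to 62.0%) stood beside 54.1% (52.3 to 55.9%) in the pairs that were not displaced and 55.7% in all one-to-one pairs. The lead of the wild type came more from the nested than from the partly overlapping pairs, where 56.8% (53.3 to 60.3%) had the wider peak in the wild type, beside 55.4% of the partly overlapping pairs that were not displaced. It was not seen on every chromosome. Across the 7 chromosomes the share with the wider wild-type peak ran from 49.0 to 64.1% and was above 50% on 5, while the outer peak of the nested pairs was more often that of the wild type on 7 of 7 chromosomes, in 54.0 to 72.0% of pairs.

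Displaced peaks had lower median widths than the other paired peaks, apart from the outer peaks of nested pairs. In the wild type their widths had a median of 1497 bp (quartiles 831 and 2480, range 270 to 7679 bp), and in delta-asf1 a median of 1138 bp (quartiles 673 and 1976, range 266 to 8613 bp). The peaks that were not displaced had medians of 1853 and 1756 bp. In nested pairs with the wild-type peak outside the medians were 2636 bp for the outer and 812.5 bp for the inner peak, and with the delta-asf1 peak outside 2360 and 752 bp. The shared stretch of a displaced pair had a median of 618 bp and ran from 2 to 4231 bp, and it was under 100 bp in 60 pairs. The wider peak was 2.45 times as wide as the narrower one at the median, and 19.4 times at most. The overlap fell below 50% of both peaks in 277 pairs, of the wild-type peak alone in 643 and of the delta-asf1 peak alone in 421. The middles of both peaks lay 695 bp apart at the median, beside 153 bp in the pairs that were not displaced.

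**Figure D1:**
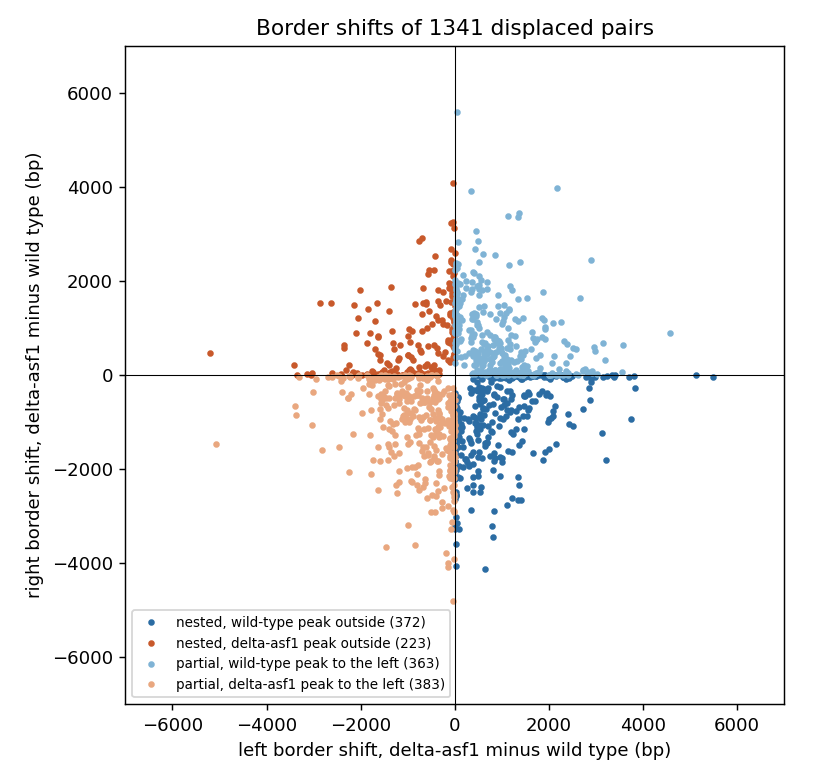
Shift of the left border (x axis, bp) and of the right border (y axis, bp) of each of the 1341 displaced pairs, as the position in delta-asf1 minus that in the wild type, coloured by class with the number of pairs. Points along either axis are pairs in which 1 border lay at nearly the same place, and 709 pairs had a border within 200 bp.

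Often a single border had moved. In 709 displaced pairs (52.9%, 50.2 to 55.5%) one of both borders lay within 200 bp in the 2 strains, and in 24 of them at the same base. In the other 632 pairs (47.1%) both borders were more than 200 bp apart, as in 11.5% of the pairs that were not displaced. A border within 200 bp was found in 55.1% of the nested pairs with the wild-type peak outside and in 66.4% of those with the delta-asf1 peak outside. It was found in 48.5 and 47.0% of the partly overlapping pairs with the wild-type and the delta-asf1 peak to the left. In the nested pairs the inner peak thus often sat near one end of the outer peak. The shorter side had a median of 82 bp (quartiles 22 and 477.5, at most 1809 bp) and the longer side a median of 1370 bp. The distance between left borders had a median of 704 bp and that between right borders 749 bp, and their sum a median of 1637 bp (quartiles 1132 and 2308, range 282 to 6542 bp).

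The largest share of borders, in bins of 100 bp, lay less than 100 bp apart. A shallow dip followed at 200 to 299 bp, and then a broad spread of longer distances. The dip was local: 1300 to 1399 bp held 2.76% of displaced borders, and 500 to 599 bp held 3.43% of the others. Of the 2682 borders of displaced pairs, 616 (23.0%) lay less than 100 bp apart, 73 (2.72%) 200 to 299 bp and 148 (5.52%) 400 to 499 bp. The same dip was seen in the pairs that were not displaced, with 57.7% of 6042 borders below 100 bp, 3.41% at 200 to 299 bp and 5.74% at 300 to 399 bp. Peaks of either list kept a minimum spacing that goes with this scale: the narrowest peak was 270 bp in the wild type and 266 bp in delta-asf1, and the smallest gap between neighbouring peaks was 1084 and 1066 bp, 4.01 times the narrowest peak in both. No peaks of one list lay closer together than that. The part of this spacing in the border shifts was not tested.

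**Figure D2:**
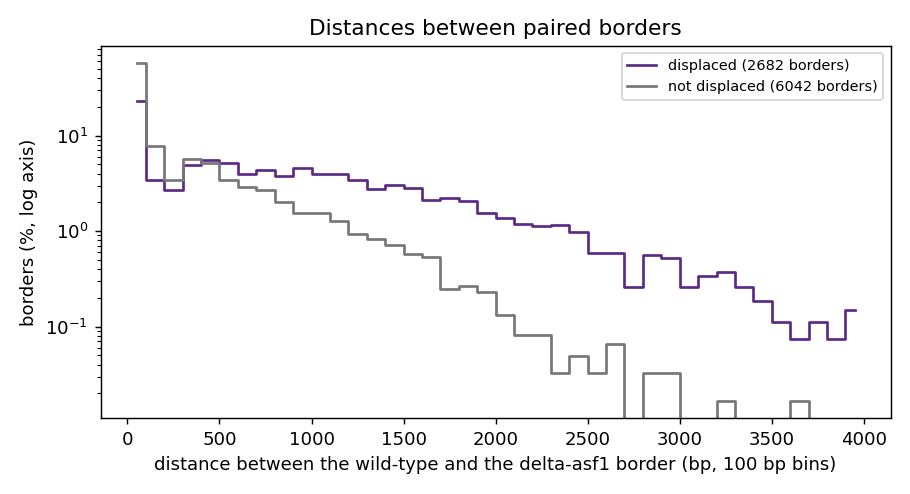
Distance between the wild-type and the delta-asf1 border (x axis, bp, bins of 100 bp up to 4000 bp) and the share of borders in each bin (y axis, percent, log axis) for displaced pairs and for the other one-to-one pairs. In both curves the share falls to a dip at 200 to 299 bp, with 2.72 and 3.41% of borders, and rises again.

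The class of a pair went with how little its peaks overlapped. Among the 123 pairs whose lower overlap was under 10% of a peak, 7.32% were nested, among the 198 pairs from 10 to 20% it was 29.3%, and in the bins from 20 to 50% it was 51.3, 52.1 and 51.8% of 275, 326 and 419 pairs. A nested pair with such an overlap needs an inner peak under 10% as wide as the outer one. The share with the wider wild-type peak stayed between 56.7 and 61.3% in these bins. Just inside the threshold stood a nested pair on chromosome 1, in which the wild-type peak from 8498336 to 8499796 covered 49.9146% of a delta-asf1 peak of 2927 bp, and a partly overlapping pair with an overlap of 49.9032% of a wild-type peak of 5164 bp. Just outside stood a pair on chromosome 5 at 50% and a pair on chromosome 3 at 50.0485%.

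The pairs with the largest summed shift in each class showed what such borders look like on the chromosomes. On chromosome 6 a wild-type peak from 4068579 to 4076257 (7679 bp) enclosed a delta-asf1 peak from 4074083 to 4076216 (2134 bp). Their right borders were 41 bp apart and their left borders 5504 bp, and the gene SMAC4_09621 lay under the wild-type peak alone. On chromosome 2 the wild-type peak from 2824541 to 2829963 (5423 bp) stood beside a delta-asf1 peak of 279 bp from 2829677 to 2829955. The narrow peak lay inside SMAC4_03994, whereas SMAC4_03995, SMAC4_03996 and SMAC4_03997 were touched by the wild-type peak alone. The third such pair, on chromosome 1, had 5826 bp from 749790 to 755615 in the wild type and 791 bp from 753019 to 753809 in delta-asf1, with SMAC4_05221 under the wild-type peak alone. Gene names here are locus tags, since the gene table names no product.

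The nested pairs with the delta-asf1 peak outside gave the reverse picture in the 3 pairs with the largest shift, where the outer peak reached over a neighbouring gene. A gene under the delta-asf1 peak alone was found in 56 of the 223 pairs of this class, and the same genes under both peaks in 153. On chromosome 1 a wild-type peak of 347 bp from 5054527 to 5054873 lay inside SMAC4_04615, and the delta-asf1 peak from 5049324 to 5055333 (6010 bp) also covered part of SMAC4_04614. On chromosome 5 a wild-type peak of 4231 bp from 3926925 to 3931155 lay wholly in SMAC4_08128. The delta-asf1 peak around it ran from 3924071 to 3932683 and was the widest delta-asf1 peak of the displaced pairs (8613 bp), reaching SMAC4_08127. On chromosome 4 the peak in SMAC4_02135 was 628 bp in the wild type and 4800 bp in delta-asf1, where it reached SMAC4_02136.

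Partly overlapping pairs with large shifts had either both borders or a single border far apart. The largest summed shift of the displaced pairs, 6542 bp, was found on chromosome 1, where the delta-asf1 peak from 702701 to 707994 lay 90.7% within genes, in SMAC4_05212. The wild-type peak from 707767 to 709470 shared 228 bp with it and touched no gene. On chromosome 7 a wild-type peak from 75955 to 78656 and a delta-asf1 peak from 78128 to 82638 shared 529 bp in SMAC4_12116, and SMAC4_07728 lay under the wild-type peak alone. A second pair on chromosome 7 had left borders 44 bp apart, at 2036831 and 2036875 in SMAC4_00639, but was 940 bp wide in the wild type and 6499 bp in delta-asf1. Near the start of chromosome 4 the peaks began at 225 in the wild type and at 196 in delta-asf1 and ended at 7830 and 3018, and SMAC4_13580 was reached by the wild-type peak alone.

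**Figure D3:**
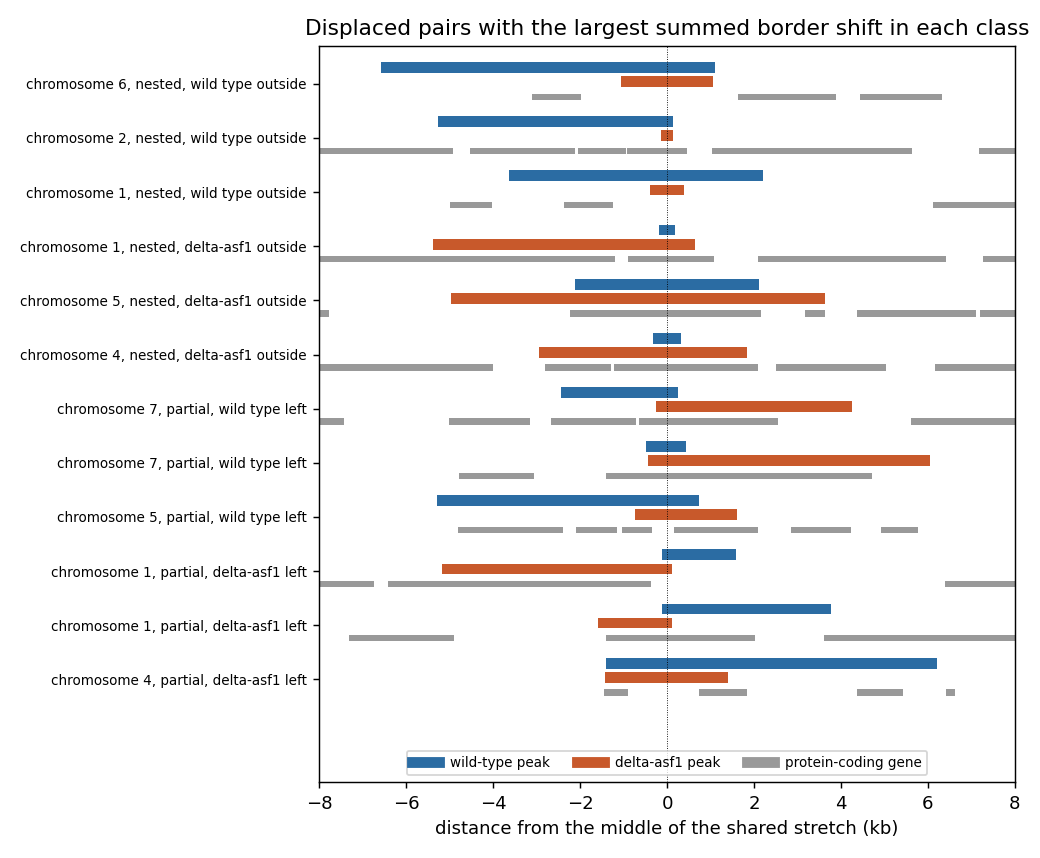
Wild-type peaks, delta-asf1 peaks and protein-coding genes of the 3 displaced pairs with the largest summed border shift in each of 4 classes, drawn to scale against the distance from the middle of the shared stretch (x axis, kb). The upper bars span up to 7679 bp in the wild type and the middle bars up to 8613 bp in delta-asf1, and the grey bars are genes.

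Enrichment was close to that of the local background in both strains, and its ratio within pairs spanned a narrow range. The deposited fold enrichment, the linear ratio of the signal to the local background averaged over a peak, had a median of 1.24 in the wild type (range 1.17 to 1.44) and 1.25 in delta-asf1 (range 1.13 to 1.56) at displaced peaks. The peaks that were not displaced had medians of 1.25 and 1.27. The log2 ratio of the folds, delta-asf1 over wild type, after the median of all one-to-one pairs (0.012) had been subtracted, had a median of -0.0061 in displaced pairs (quartiles -0.048 and 0.035, range -0.22 to 0.28). It was above 0, that is above the median pair, in 622 displaced pairs (46.4%, 43.7 to 49.1%), beside 51.6% of the pairs that were not displaced. Before the subtraction the fold was higher in delta-asf1 in 736 displaced pairs (54.9%, 52.2 to 57.5%), beside 59.9% of the others. By class the share above 0 was 44.1% in nested pairs with the wild-type peak outside and 51.1% with the delta-asf1 peak outside. It was 47.4 and 44.9% in partly overlapping pairs with the wild-type and the delta-asf1 peak to the left. Each fold is averaged over a peak of its own width, so these ratios compare unlike stretches.

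Displaced peaks ranked lower in their own lists than the other paired peaks. Their median rank by fold was 44.0% in the wild-type list and 42.7% in the delta-asf1 list, where 100% is the strongest peak, beside 56.6 and 56.7% for the peaks that were not displaced. Both peaks ranked below 50% in 520 displaced pairs (38.8%, 36.2 to 41.4%), beside 24.4% of the others, and both ranked above 50% in 336 (25.1%), beside 38.6%. The weakest ranks stood with the smallest overlaps: the pairs that overlapped by under 10% had median ranks of 31.1% in the wild type and 23.2% in delta-asf1. Those from 40 to 50% had 45.9 and 49.1%. In the bins between, the rank rose step by step in delta-asf1 (39.1, 40.5 and 43.7%) but not in the wild type (47.1, 41.9 and 45.0%). The median -log10 of the q-value was 2.10 and 2.43 at displaced peaks and 2.34 and 2.83 at the others. Inner peaks did not rank above the outer peaks around them. An inner delta-asf1 peak had the higher rank in 173 of 372 pairs (46.5%, 41.5 to 51.6%) and an inner wild-type peak in 99 of 223 (44.4%, 38.0 to 51.0%). Inner peaks under 500 bp made up 20.2 and 27.8% of these classes.

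Peaks near the top of their lists by fold also had displaced borders. At the right end of chromosome 1 the wild-type peak from 9307730 and the delta-asf1 peak from 9309641 both ended at 9310075, with folds of 1.44 and 1.56, the highest of each strain among displaced pairs, and no protein-coding gene under either. On chromosome 2 a wild-type peak of 3978 bp (fold 1.42) and a delta-asf1 peak of 778 bp (fold 1.48) began 9 bp apart in SMAC4_02690, and the wild-type peak went on over SMAC4_02689 and SMAC4_02688. On chromosome 4 the wild-type peak in SMAC4_05358 was 519 bp wide with a fold of 1.41, and the delta-asf1 peak 1103 bp with 1.47. Both peaks of a pair on chromosome 1 lay wholly in SMAC4_02842, with folds of 1.41 over 298 bp in the wild type and 1.39 over 2082 bp in delta-asf1. In SMAC4_04363 on the same chromosome the left borders were 34 bp and the right borders 269 bp apart, with folds of 1.42 and 1.43, so that this narrow pair met the rule with a summed shift of 303 bp.

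Gene positions had no part in the rule, and gene cover differed between the stretches of the strains. Protein-coding genes covered 78.0% of the 988076 bp that both peaks of a displaced pair shared and 72.9% of the 975507 bp that lay in the delta-asf1 peak alone. They covered 54.9% of the 1451438 bp in the wild-type peak alone, a little under the 58.0% of all bases of the chromosomes. The stretches of the wild type alone were the lowest of these shares on 7 of 7 chromosomes (49.7 to 60.4%), the stretches of delta-asf1 alone ran from 66.6 to 78.3%, and the shared stretches, from 73.3 to 81.8%, were above both on each chromosome. The same order was found in the pairs that were not displaced, with 79.4% in shared stretches, 74.6% in delta-asf1 alone and 58.9% in the wild type alone, and the whole lists covered genes to 71.1% in the wild type and 78.1% in delta-asf1. The order was therefore not particular to displaced pairs. Without the 10% of pairs with the longest unshared stretch, a choice made after the data had been seen, the shares were 78.8, 73.7 and 56.6%.

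**Figure D4:**
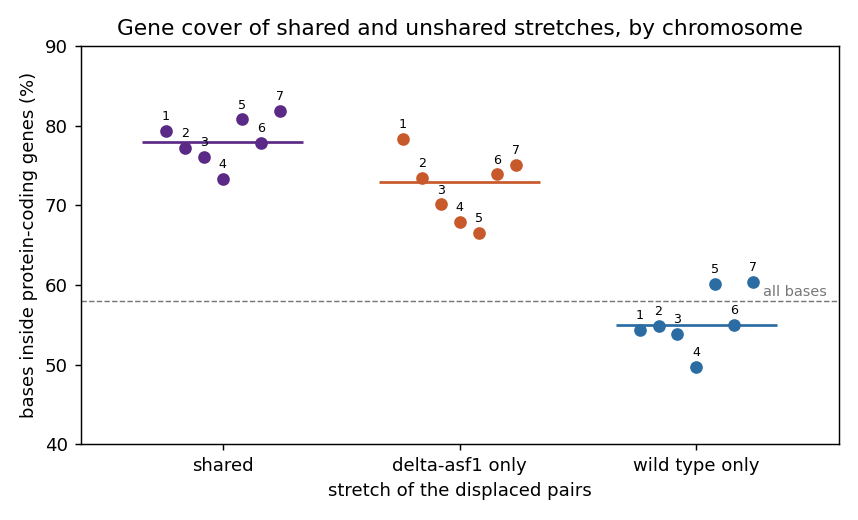
Share of bases inside protein-coding genes (y axis, percent) in the stretches of displaced pairs that both peaks shared, that lay in the delta-asf1 peak alone and that lay in the wild-type peak alone, 1 point per chromosome (numbered) with the value over all 7 as a line. The dashed line is the share of all bases of the chromosomes (58.0%), and the points of the wild type alone lie between 49.7 and 60.4%.

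Class by class the shares of the unshared stretches differed little, and those of the shared stretches ran from 75.5% in nested pairs with the wild-type peak outside to 81.0% in those with the delta-asf1 peak outside. The stretches in the wild-type peak alone were genic to 54.9% in nested pairs and to 54.6 and 55.2% in partly overlapping pairs with the wild-type and the delta-asf1 peak to the left. Those in the delta-asf1 peak alone were genic to 72.3, 73.1 and 73.4%. Within a partly overlapping pair both kinds of stretch can be set against each other, and that of delta-asf1 was the more genic in 343 pairs (46.0%, 42.4 to 49.6%), that of the wild type in 141 (18.9%, 16.3 to 21.9%), with 262 equal. Of 1118 pairs with bases in the wild type alone, 342 (30.6%, 28.0 to 33.4%) had these wholly inside genes and 181 (16.2%) wholly between genes, beside 52.3 and 20.1% of such pairs that were not displaced. Of 969 pairs with bases in delta-asf1 alone, 545 (56.2%, 53.1 to 59.3%) had them wholly inside genes and 135 (13.9%) wholly between genes, beside 68.0 and 14.4%.

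The middles of the peaks gave the same order of the strains. They lay inside a protein-coding gene for 1024 delta-asf1 peaks of displaced pairs (76.4%, 74.0 to 78.6%) and 907 wild-type peaks (67.6%, 65.1 to 70.1%). In the pairs that were not displaced the shares were 79.6 and 79.1%, and in the whole lists 77.8 and 70.6%. When any overlap with a gene was counted instead of the middle, the order turned, with 87.3% in delta-asf1 and 87.8% in the wild type, whose peaks were wider. The delta-asf1 peak of a displaced pair was the more genic one in 611 pairs (45.6%) and the wild-type peak in 289 (21.6%), beside 34.6 and 22.8% of the pairs that were not displaced. In either direction of nesting the narrower, inner peak was the more genic one more often than the outer peak, and the remaining pairs were equal. With the wild-type peak outside, delta-asf1 was more genic in 59.1% of pairs and the wild type in 14.2%, and with the delta-asf1 peak outside the wild type was more genic in 41.7% and delta-asf1 in 18.8%.

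Borders of both strains lay in genes more often than between them. Of 2682 borders of displaced pairs, 66.2% (64.4 to 67.9%) lay inside a gene in the wild type and 73.4% (71.7 to 75.1%) in delta-asf1, beside 71.9 and 74.2% in the pairs that were not displaced. In nested pairs with the wild-type peak outside, 57.8% (54.2 to 61.3%) of the outer, wild-type borders and 74.9% (71.6 to 77.8%) of the inner, delta-asf1 borders were in genes. With the delta-asf1 peak outside, the shares were 70.9% (66.5 to 74.9%) for the outer and 79.4% (75.4 to 82.9%) for the inner borders. Around the borders gene cover rose from the outside to the inside. For displaced delta-asf1 borders it was 42.6% at 1000 bp outside and 76.5% at 250 bp inside. Displaced wild-type borders had a flatter course, with 47.9% at 1000 bp outside and 67.8% at 250 bp inside. In the pairs that were not displaced, gene cover went from 42.9% at 1000 bp outside to 77.4% at 500 bp inside in the wild type and from 41.2 to 79.4% in delta-asf1, so that the curves of both strains lay closer together.

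**Figure D5:**
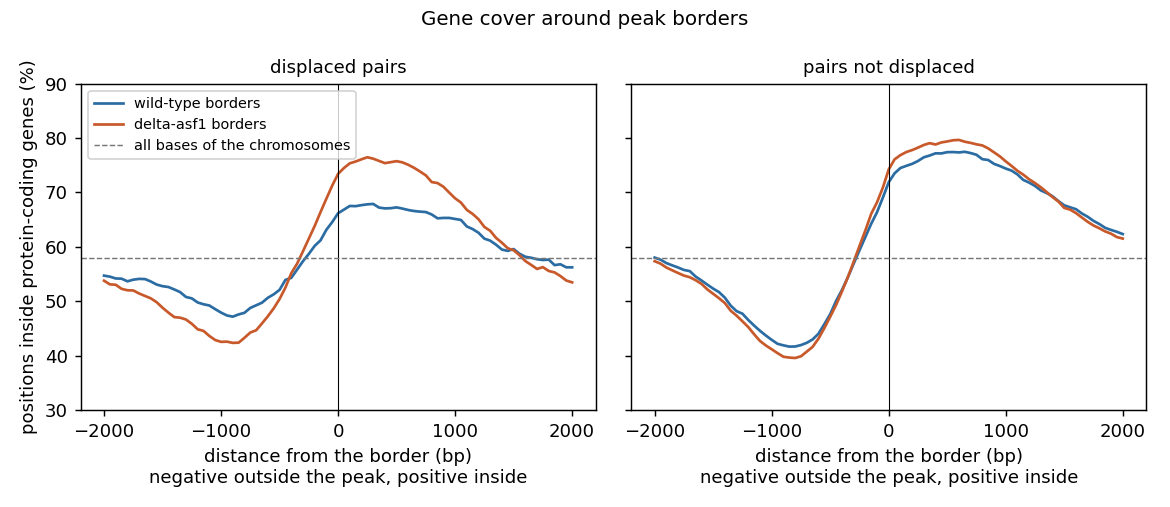
Share of positions inside protein-coding genes (y axis, percent) against the distance from a peak border (x axis, bp, negative outside and positive inside the peak) for wild-type and delta-asf1 borders of displaced pairs (left) and of pairs that were not displaced (right), with the share of all bases as a dashed line. At displaced borders the delta-asf1 curve goes from 42.6% at 1000 bp outside to 76.5% at 250 bp inside, and the wild-type curve from 47.9 to 67.8%.

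The displaced pairs touched 1602 of 10309 protein-coding genes. Of these, 1166 lay under peaks of both strains, 291 under wild-type peaks alone and 145 under delta-asf1 peaks alone. No peak of the other list, paired or not, lay on 241 of the 291 (82.8%, 78.1 to 86.7%) and on 122 of the 145 genes (84.1%, 77.3 to 89.2%). The same shares were not worked out for the pairs that were not displaced, so whether they are particular to displaced pairs is unknown. The pairs that were not displaced touched 3729 genes, 3508 of them in both strains, 136 in the wild type alone and 85 in delta-asf1 alone. Both peaks of a displaced pair touched the same genes in 800 pairs and no gene in 125, beside 2570 and 223 of the 3021 pairs that were not displaced. A gene was touched by the wild-type peak alone in 283 pairs and by the delta-asf1 peak alone in 147, beside 142 and 94. The rule takes pairs with long unshared stretches, so more such genes than in the other pairs follow from it. In displaced pairs the stretches of the wild type alone held 1451438 bp and those of delta-asf1 alone 975507 bp. A single gene was touched in 851 displaced pairs and more than 1 in 365, beside 2010 and 788 of the others.

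Genes for transfer RNAs, which RNA polymerase III transcribes, stood in the wild-type stretches of displaced pairs at about the density of the genome, and none was found in their shared or delta-asf1 stretches. Of 445 tRNA genes in the gene table (11.3 per Mb), the middles of 14 lay in displaced pairs, each in a different pair and on 6 chromosomes, and each of them was inside the wild-type peak and outside the delta-asf1 peak. This gave 9.65 per Mb (exact Poisson interval 5.27 to 16.2) in the wild-type stretches, an interval that includes the density of the genome. The 0 in the shared and 0 in the delta-asf1 stretches allow up to 3.73 and 3.78 per Mb by the same exact interval, and up to 3.04 and 3.08 per Mb as 3 counts. Examples are SMAC4_13894 and SMAC4_13952 on chromosome 6 and SMAC4_13232 on chromosome 2, in the outer, wild-type part of nested pairs, and SMAC4_14160 on chromosome 7 at 210 bp from the delta-asf1 border, the smallest distance of the 14. They were chosen after their values had been seen. The median distance to the nearest delta-asf1 border was 806.5 bp and the largest 2436 bp. In the pairs that were not displaced, 13 tRNA genes lay in shared stretches (2.19 per Mb), 5 in wild-type stretches (5.22 per Mb) and 1 in a delta-asf1 stretch (1.36 per Mb). Over the whole lists there were 53 in wild-type peaks (3.18 per Mb, 2.38 to 4.16) and 24 in delta-asf1 peaks (1.61 per Mb, 1.03 to 2.40). Both lay below the density of the genome. The upper limits of 3.73 and 3.78 per Mb at displaced pairs include 2.19, 1.36 and 1.61 per Mb. The 0 counts are therefore not set apart from the delta-asf1 list or from the pairs that were not displaced.

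A part of the displaced pairs had been counted by the authors as peaks of one strain. Their lists of unique peaks held 1389 wild-type and 920 delta-asf1 peaks, of which 134 and 112 overlapped a peak of the other strain, by at most 9.94 and 9.80% of their own length. Peaks outside these lists overlapped by at least 10.0 and 10.2%. In 123 displaced pairs (9.17%, 7.74 to 10.8%) a peak was listed as unique. This share was 3.19% among the 50% of peaks with the higher −log10 q and 5.37% with a minimum overlap of 100 bp. It was 37.2% with peaks less than 1500 bp apart joined, a choice made after seeing the data, where a joined peak counts as unique if any part was. The unique peak was the wild-type peak in 89 and the delta-asf1 peak in 66 pairs, both in 32. These were the 123 pairs whose lower overlap was under 10%, and where a single peak was listed, the overlap was 10.0% or more of its partner. Among the 3021 pairs that were not displaced there were 0, as the rule fixes.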

How the data were processed

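Chromatin immunoprecipitation with sequencing was done by the authors, whose processing notes name fastp, Bowtie2 and MACS2, with no versions and no settings in the sources used here. The authors deposited a pooled and a unique peak list per strain in the column order of broad peaks: position, a display score, a linear ratio of signal to local background (the fold enrichment), and p- and q-values, both as −log10. How unique peaks were selected is not given in the sources used here. Reads and inputs were not analysed here, so depth per sample is unknown. Columns of per-sample values left unused numbered 0.

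Peaks were paired by an overlap of 1 bp or more with Python 3.11.15, pandas 2.3.3 and numpy 2.4.6, and the pairing was tested on simulated lists. Positions are those of the files, 1-based. Protein-coding and RNA genes came from RefSeq's gene table (assembly ASM3387043v1), which gives no strand or product, so gene groups by product, gene starts and sequences were not examined. Peak middles lay in genes most often without a shift (70.6% in the wild type and 77.8% in delta-asf1, against 57.5 to 58.8% and 58.3 to 59.5% at shifts of 5000 bp or more), so positions were joined. A chromosome was taken to end with its last gene or peak. Pairs were named by a rule: in each of 4 classes the 3 with the largest summed shift and the 3 with the highest lower fold, and those next to the threshold. The members and lists were chosen with earlier results of these data known. With 1 list per strain no test was made. The alternatives were other overlap limits, stronger peaks, equal list sizes, joined peaks, −log10 p-values for strength, any overlap with a gene, and leaving out chromosome 2.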

Additional observations from a re-analysis of the deposited data

How the results depend on the processing

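With 1 pooled list per strain no replicate could be left out. No paired analysis was possible because the pooled lists give no value per replicate. Of 75 values recomputed under 10 alternatives, 56 stayed within their counting interval or, for the number of pairs, within 1.5 times the main count, and 19 moved. With the 50% of each list that had the higher −log10 q, 626 pairs were displaced, 48.6% of them nested, with the wild-type peak to the left in 43.2% of the partly overlapping ones, 79.7% of delta-asf1 and 74.0% of wild-type middles in genes, and 3.19% with a peak in a unique list. A limit of 40% instead of 50% gave 41.0% nested, 64.0% of wild-type middles in genes and 13.3% with a unique peak, and a limit of 60% gave 70.4 and 6.88% for the latter. A minimum overlap of 100 bp gave 5.37% with a unique peak. Any overlap with a gene gave 87.3% in delta-asf1 and 87.8% in the wild type and so left little between the strains. Joining peaks less than 500 bp apart joined none, so peaks less than 1500 bp apart were joined instead, a choice made after seeing the data. This left 958 displaced pairs, 47.1% of them nested, the wild-type peak wider in 63.3% and outside in 66.5% of nested pairs, 64.2% of wild-type middles in genes and 37.2% with a unique peak, where a joined peak counts as unique if any of its parts was. Over 9 settings gene cover ran from 76.7 to 84.2% in shared stretches, 70.2 to 76.1% in delta-asf1 alone and 51.5 to 62.2% in the wild type alone. The cause of these changes was not tested. The fold over background is given only as a mean over each peak, with medians of 1.24 in the wild type and 1.25 in delta-asf1 at displaced peaks. Read depth and replicate spread are unknown. These points limit the precision of every border.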

Other observations

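Displaced pairs were spread over the chromosomes. They made up 28.1 to 33.4% of the one-to-one pairs of a chromosome, at 30.4 to 35.9 displaced pairs per Mb. After a displaced pair the next one-to-one pair on the chromosome was displaced in 436 of 1339 cases (32.6%, 30.1 to 35.1%), and after a pair that was not displaced in 903 of 3016 (29.9%, 28.3 to 31.6%). Of 905 runs of displaced pairs, 616 held a single pair. The longest held 8 pairs on chromosome 2, from 2770159 to 2856769, with the wider peak in the wild type in 6 of them and 3 nested. It includes the pair at SMAC4_03994. Within 50 kb of a chromosome end 18 of 58 one-to-one pairs were displaced (31.0%, 20.6 to 43.8%), beside 30.7% elsewhere. The gap to the nearest peak of the same list had a median of 1775 bp in the wild type and 2092 bp in delta-asf1 at displaced peaks, beside 1629 and 1786 bp at peaks that were not displaced. For the outer peaks of nested pairs it was 1611.5 bp in the wild type and 1696 bp in delta-asf1. None of 30 genes for ribosomal RNA and none of 20 genes of other RNA classes had its middle in a displaced pair or in a pair that was not displaced, at 0.761 and 0.507 genes per Mb of the chromosomes.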
